A study of Canis lupus familiaris with 27 samples.

Results

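The comparison concerns 13 of the 27 canine mammary carcinomas of the study, namely all tumors labelled with an affected lymph node, and sets the 7 of them graded III against the 6 graded II. Each tumor came from 1 dog and was hybridized to 1 Affymetrix Canine Genome 2.0 array, a chip of short oligonucleotide probe sets for dog transcripts. All were simple carcinomas, a tumor form of epithelial cells without a proliferating myoepithelial part, and the tissue was macrodissected to enrich carcinoma cells. The question is which genes differ between the grades once lymph node metastasis is shared by both groups.

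The metastatic grade II group held a Pudel, 2 West Highland White Terriers, a Dachshund, a Spitz-Mix and a Beagle, aged 11 to 16 years. The metastatic grade III group held an American Pittbull, a Bobtail, a Rottweiler, a French Bulldog, a Bavarian Mountain Dog, a dog of mixed breed and a Golden Retriever, aged 9 to 15 years. The affected node was inguinal in all dogs but grade II tumor 6, where it was axillary. All 13 tumors were labelled negative for ERa, and all but grade II tumor 1 and grade III tumor 7 positive for HER-2. The labels name no treatment. Both groups had affected nodes, were negative for ERa and held 1 HER-2 negative tumor each. Besides the grade that pathologists assigned they differed in breeds, and in mean age and survival as given below. No normal mammary gland and no tumor of grade I was compared, and the tumors are numbered within each grade as the replicates of that grade.

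Histological grade of mammary carcinoma sums scores for tubule formation, for variation in nuclear shape and size, and for the number of mitotic figures. A tumor of higher grade forms fewer tubules, has more irregular nuclei and divides more often by its histology. Tubules depend on polarised luminal cells sealed by tight junctions, and mitotic figures on the spindle, kinetochore and replication genes of dividing cells, so the genes are taken in that order of features. Bulk arrays measure a mixture, and fewer cells of a type and less RNA per cell cannot be told apart in any difference given here.

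Age and survival differed most between the dogs of both grades, though neither passed the adjusted test. Age was 11.0 years ± 2.24 (SD, n = 7) for grade III and 14.0 ± 2.28 (SD, n = 6) for grade II, a difference of −3 years with p = 0.0443 in a two-sided exact permutation test and 0.195 after adjustment over 6 such comparisons. Survival after surgery was 6.60 months ± 1.34 (SD, n = 5) against 3.33 ± 2.88 (SD, n = 6), with an exact permutation p of 0.0649 and an adjusted p of 0.195. A survival time was given for 5 of the 7 grade III dogs, and the longest of all, 9 months, belonged to grade II tumor 4. Tumor size was 2.57 cm ± 1.40 (SD, n = 7) against 2.25 ± 1.33 (SD, n = 6), with an exact permutation p of 0.703. The part of age and survival in the gene differences was not tested beyond the fits with each as a covariate.

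**Figure D1:**
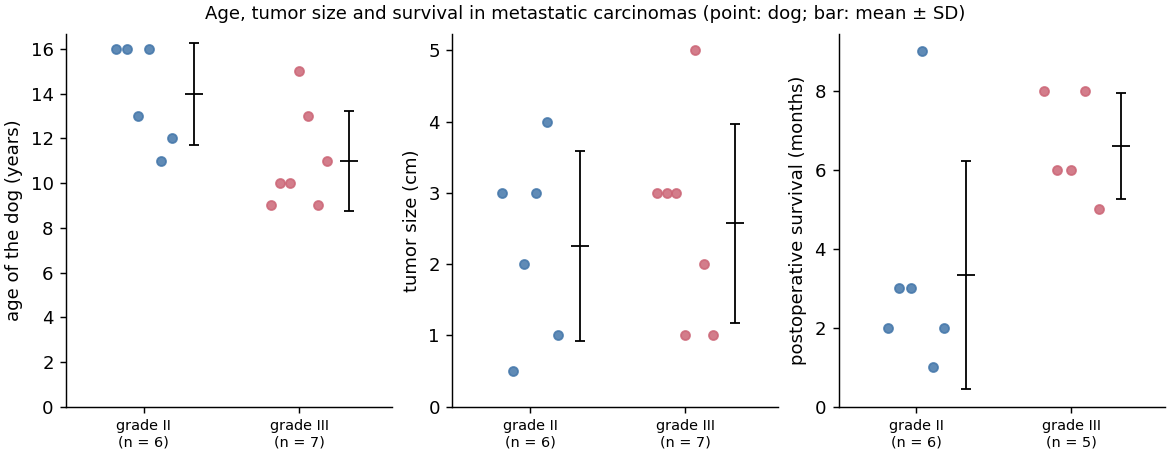
Age in years, tumor size in cm and postoperative survival in months of the metastatic dogs by grade. Points are dogs and bars give the mean ± SD. Grade II dogs were 11 to 16 and grade III dogs 9 to 15 years old, 5 of the 6 grade II dogs lived 1 to 3 months and the 5 grade III dogs with a value 5 to 8 months.

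Scale and RNA quality of the arrays were compared in the same way, and no difference passed the test. On the log2 scale, the array upper quartiles averaged 7.94 ± 0.04 (SD, n = 7) in grade III and 7.92 ± 0.05 (SD, n = 6) in grade II, with an exact permutation p of 0.555. The difference between 3′ and 5′ control probe sets of GAPDH, which grows as RNA degrades, was 1.88 against 1.79 with an exact permutation p of 0.652. For actin it was 4.11 against 4.14 with an exact permutation p of 0.910. The 3′ signal thus exceeded the 5′ signal in both grades. Sample names ended in a year instead of the letter T for 1 tumor of each grade. Over all probe sets, the correlation of 2 arrays averaged 0.957 within grade III, 0.948 within grade II and 0.953 across the grades. Grade III tumor 7 had the lowest mean correlation with the others, 0.943.

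Epithelial markers were checked in the 13 tumors, which are labelled as carcinomas. EPCAM, an adhesion molecule of epithelial cells, ranged from 12.48 to 14.30 on the log2 scale. The simple epithelial keratin KRT8 ranged from 10.20 to 14.49, KRT18 from 6.50 to 14.31 and KRT7 from 8.77 to 13.91. The lowest values of these 3 keratins belonged to grade III tumor 7, whose EPCAM lay within the range just given. CDH1, the epithelial cadherin, lay between 4.71 and 8.80 and MUC1, an apical mucin, between 2.72 and 9.37. ESRP1, a further epithelial marker, lay between 5.63 and 10.57. Every one of these markers was lower on average in grade III, none at an adjusted p under 0.05 in limma. Grade III minus grade II was −0.13 for EPCAM, −0.99 for KRT8, −1.98 for KRT18 and −1.78 for KRT7. It was −0.54 for CDH1, −0.38 for MUC1 and −1.16 for ESRP1. The part of this in other differences was not tested. For orientation, the middle 50% of all gene values in these tumors lay between 2.50 and 8.77, and 26.1% of the genes were at or below 3 in all 13 tumors, the floor of the array.

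No gene differed between the grades at an adjusted p under 0.05. The test was limma, a linear model per gene with a spread shared across genes, over 15115 genes, 1 probe set each, with Benjamini-Hochberg adjustment, and 0 genes (0%) passed, with a smallest adjusted p of 0.950. At an unadjusted p under 0.05, 557 genes (3.69%) were found, 258 higher in grade III (1.71%) and 299 lower (1.98%), which is fewer than an even spread of p over the genes would give, 756. Testing all 42860 probe sets gave 0 at an adjusted p under 0.05 and 1290 (3.01%) at an unadjusted p under 0.05. A plain linear model without shared spread also gave 0 genes, and 3.20% at an unadjusted p under 0.05. Under the stricter pair of limits named in the methods (0.001 for the adjusted p, 1.7 for the fold), 0 genes passed.

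**Figure D2:**
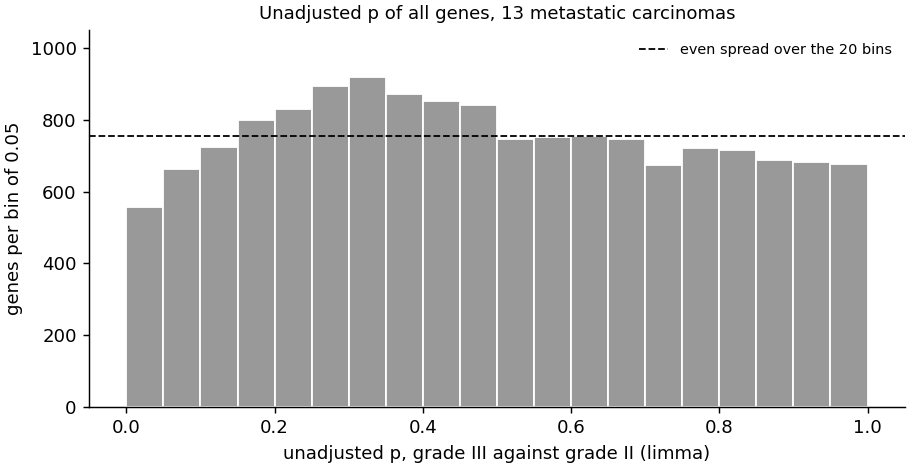
Number of genes per bin of 0.05 of the unadjusted p from limma, grade III against grade II. The dashed line marks an even spread of 756 genes per bin. The first bin holds 557 genes, and the bin from 0.3 to 0.35 is the fullest with 919.

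The precision of the comparison was limited by 13 arrays. The 95% interval of a typical gene reached 0.53 to either side of its difference on the log2 scale (median over genes), with quartiles of 0.12 and 0.91, where a difference of 1 is a 2-fold difference. These values cover the 26.1% of genes at the floor too, of which UBE2C had an SE of 0.04. The median difference over all genes was 0.02 and the middle 50% of differences lay between −0.13 and 0.15. In grade III 286 genes (1.89%) were higher by at least 1 and 318 (2.1%) lower by at least 1, sizes that the adjusted test did not separate from the spread between tumors. Throughout the following text a difference is grade III minus grade II of mean log2 signals with its standard error (SE), unadjusted p values are from limma, and no gene has an adjusted p below 0.950.

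Mitotic genes, the expression counterpart of the mitotic count, had no shift in their median between the grades. Of 46 measured genes of mitosis and spindle, 0 had an unadjusted p under 0.05, 23 were above 0 and 23 below, and their median difference was −0.00, against 0.02 for all genes. Leaving out 1 tumor moved it between −0.33, without grade II tumor 5, and 0.26, without grade III tumor 5. The mean level of the list ran from 5.71 to 9.09 with a median of 7.93 in grade III and from 6.14 to 8.75 with a median of 7.70 in grade II. The highest and the lowest tumor of all 13 were both of grade III, tumors 7 and 5 respectively, and every grade II tumor lay between them. The interval of 38 of the 46 genes still included a difference of 1, and that of 4 lay wholly between −1 and 1, so a 2-fold difference of most single mitotic genes was not excluded at this number of tumors.

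CENPA, the histone H3 variant of centromeres, ranged from 2.29 to 7.97 with a median of 4.79 in grade III and from 2.40 to 8.18 with a median of 6.85 in grade II. The groups overlapped nearly in full, and the difference was −1.22 (SE 1.05). ZWILCH, a kinetochore protein of the spindle checkpoint, had the smallest p of the list, with 4.42 to 8.08 (median 6.30) in grade III, 2.83 to 6.95 (median 5.56) in grade II and a difference of 0.94 (SE 0.69). CDCA8, a subunit of the chromosomal passenger complex, differed by −1.07 (SE 0.88), CEP55, which acts in abscission, by 0.57 (SE 0.70) and NUSAP1, a microtubule-binding spindle protein, by 0.29 (SE 0.50). UBE2C, a ubiquitin-conjugating enzyme of mitotic exit, was at the floor in all 13 tumors, between 2.43 and 2.66.

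AURKA, the kinase of centrosome maturation, spanned 6.13 to 10.17 in grade III and 6.96 to 10.42 in grade II, with medians of 8.77 and 8.81. Its difference was −0.29, with a 95% interval from −1.84 to 1.26. A second probe set of AURKA gave 0.24 (SE 0.76), so the direction depended on the probe set. No probe set of the platform annotation used here was assigned to the proliferation marker MKI67.

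The replication genes gave a like picture. Of 42 measured genes 0 had an unadjusted p under 0.05, 21 were above 0, and the median difference was 0.00, with −0.19 without grade III tumor 7 and 0.18 without grade III tumor 5 as its extremes when 1 tumor was left out. Their mean level ran from 7.28 to 9.52 in grade III and from 7.46 to 9.20 in grade II, with medians of 8.75 and 8.78. CDT1, a licensing factor that loads the replicative helicase, lay between 4.45 and 6.26 (median 5.36) in grade III and between 5.09 and 7.07 (median 6.05) in grade II, with the smallest p of the list (difference −0.74, SE 0.35). GINS2, a helicase subunit, differed by 0.87 (SE 0.67), the single-strand binding subunit RPA2 by 0.45 (SE 0.37), the thymidylate kinase DTYMK by −0.67 (SE 0.40), the primase subunit PRIM2 by 0.25 (SE 0.33) and the ribonucleotide reductase subunit RRM1 by 0.24 (SE 0.28).

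**Figure D3:**
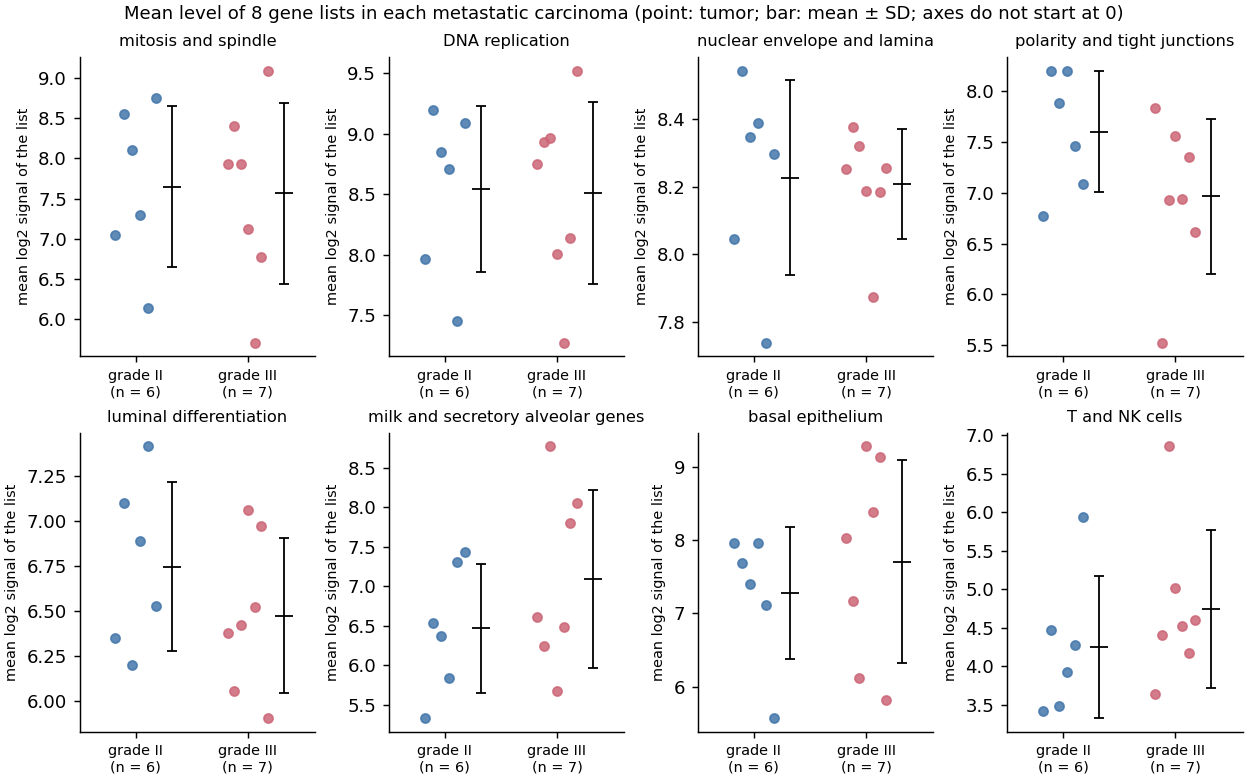
Mean log2 signal of 8 gene lists in each metastatic carcinoma by grade, on axes that do not start at 0. Points are tumors and bars give the mean ± SD. Both grades overlap in every panel, and mitosis and spindle genes run from 5.71 to 9.09 in grade III and from 6.14 to 8.75 in grade II.

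Nuclear envelope and lamina genes, taken for the nuclear feature of grade, had a median difference of 0.10 over 28 genes, 17 of them above 0. At an unadjusted p under 0.05, 0 were higher and 1 lower (3.6%, against 1.98% of all genes). The 1 gene was NUP210, a membrane protein of the nuclear pore. NUP210 was 2.62 to 3.46 (median 2.72) in grade III and 2.57 to 6.85 (median 4.62) in grade II. All grade III tumors were near the floor, as were grade II tumors 1 and 5, and the difference was −1.78 (SE 0.70). The pore proteins NUP37 and TPR differed by 0.57 (SE 0.27) and 0.27 (SE 0.14), the lamin B receptor LBR by 0.39 (SE 0.26), the nesprin SYNE1 by 0.92 (SE 0.65) and NUP188, an inner ring protein of the pore, by −0.97 (SE 0.49).

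Genes of cell polarity and tight junctions, which tubules need, had the lowest median of the 32 lists. Of 33 measured genes 25 were below 0 (75.8%, against 41.1% of all genes), their median difference was −0.61, and 3 were lower (9.1%, against 1.98% of all genes) and 0 higher at an unadjusted p under 0.05. The median was −0.34 without grade III tumor 2. The mean level of the list was 5.53 to 7.84 (median 6.94) in grade III and 6.77 to 8.20 (median 7.67) in grade II. The groups overlapped, with 2 grade III tumors, tumors 2 and 7, below every grade II tumor and 0 grade III tumors above the highest. Genes of 1 pathway vary together between tumors, so the share below 0 is a description of the list and not a test.

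RAB25, a GTPase of apical recycling in epithelia, was 2.39 to 3.81 (median 2.63) in grade III and 3.12 to 4.72 (median 3.92) in grade II. All 7 grade III tumors lay below the grade II median, at a low level in both groups, and the difference was −1.10 (SE 0.28). For genes named by their small p in this contrast, here and below, such counts follow in part from that choice. They are no further support. LLGL2, a basolateral polarity protein, was 2.74 to 6.40 (median 3.99) in grade III and 4.40 to 8.48 (median 6.56) in grade II, with a difference of −2.20 (SE 0.79).

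CGN, the tight junction plaque protein cingulin, was 5.08 to 8.75 (median 7.25) against 6.32 to 9.98 (median 9.11), a difference of −1.71 (SE 0.73). Its second probe set gave −0.57 (SE 0.38). SPINT2, an inhibitor of membrane-bound serine proteases of epithelia, differed by −0.76 (SE 0.37). On the other side stood the claudin CLDN8 with 1.55 (SE 1.15) and the polarity scaffold PARD3 with 0.19 (SE 0.39).

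Luminal genes were mixed in sign. Of 24 measured genes of luminal differentiation 11 were above 0, and the median difference was −0.07. At an unadjusted p under 0.05, 0 were higher and 2 lower (8.3%, against 1.98% of all genes). AGR2, a disulfide isomerase of secretory epithelia, ranged from 4.45 to 10.13 (median 7.87) in grade III and from 7.93 to 12.52 (median 11.06) in grade II. All 7 grade III tumors were below the grade II median, and the difference was −2.99 (SE 0.98), with −2.62 (SE 0.92) in a second probe set.

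KRT7, a keratin of simple epithelia, was 8.77 to 12.80 (median 12.34) in grade III and 11.87 to 13.91 (median 13.24) in grade II, a difference of −1.78 (SE 0.76). Grade III tumors 2 and 7 stood far below the rest at 8.84 and 8.77. KRT18 was 6.50 to 12.87 (median 12.29) against 11.74 to 14.31 (median 13.25), a difference of −1.98 (SE 0.97), and KRT8, its partner in the filament, differed by −0.99 (SE 0.54). GATA3, a transcription factor of luminal cells, was 6.36 to 9.90 (median 9.22) in grade III and 3.33 to 10.18 (median 6.19) in grade II. It had the opposite sign, 2.19 (SE 1.08), with all 7 grade III tumors above the grade II median and the highest value in a grade II tumor. STAT5A, which relays prolactin signals, differed by 0.51 (SE 0.41).

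Milk genes were mixed in sign. Of 10 measured genes 7 were above 0, with a median of 0.27. At an unadjusted p under 0.05 1 was higher and 1 lower (10% each, against 1.71% and 1.98% of all genes). The median was −0.014 without grade III tumor 7, −0.0075 without grade II tumor 4 and 0.075 without grade III tumor 3. LALBA, the milk protein alpha-lactalbumin, was 2.57 to 12.69 (median 5.44) in grade III and 2.42 to 6.94 (median 2.59) in grade II. It was above 11 in grade III tumors 3, 6 and 7 and at the floor in 5 of the 6 grade II tumors, and the difference was 4.27 (SE 1.92). CSN2, beta-casein, was 3.01 to 13.25 (median 7.97) against 2.86 to 7.36 (median 6.26), a difference of 2.86 (SE 1.49), and BTN1A1, the butyrophilin of milk fat globules, differed by 2.00 (SE 1.26).

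LTF, lactoferrin, went the other way, with 9.83 to 14.00 (median 13.63) in grade III, 13.13 to 15.90 (median 14.15) in grade II and a difference of −1.81 (SE 0.75). Its second probe set gave −2.27 (SE 0.93). PIGR, which carries immunoglobulins into milk, differed by −1.59 (SE 1.30), and the milk lipase CEL was at the floor in all 13 tumors.

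Basal genes had a median difference of 0.52 over 13 genes, 10 of them above 0 (76.9%, against 58.9% of all genes). At an unadjusted p under 0.05, 1 was higher (7.7%, against 1.71% of all genes) and 0 lower. The median was 0.13 without grade III tumor 6 and 0.24 without grade III tumor 4, the tumors of the highest basal means, 9.14 and 9.28. The gene at an unadjusted p under 0.05 was ITGA6, the integrin alpha 6 chain by which basal cells bind laminin. ITGA6 was 12.29, 14.92, 12.97, 12.98, 14.14, 14.69 and 14.66 in grade III tumors 1 to 7. It was 12.43, 12.27, 11.50, 12.69, 11.85 and 9.97 in grade II tumors 1 to 6. Of the 7 grade III tumors 6 exceeded all grade II tumors, and the difference was 2.02 (SE 0.55). Its other probe sets gave 2.46 (SE 0.70), 2.35 (SE 0.61) and 0.88 (SE 0.74).

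Other basal genes did not share this spread. EGFR differed by 0.64 (SE 0.42), P-cadherin (CDH3) by 1.24 (SE 0.98), the laminin chain LAMB3 by −0.66 (SE 0.39) and SFN by −0.87 (SE 1.20). TP63, the transcription factor of basal cells, was at the floor except in grade III tumors 5 (3.05) and 6 (5.51), a difference of 0.52 (SE 0.44). Of 18 smooth muscle and myoepithelial genes 0 had an unadjusted p under 0.05, 13 were above 0 and the median was 0.06. Among them the oxytocin receptor OXTR was 7.48 and 7.60 in grade III tumors 2 and 5 and at most 2.33 in the other 11 tumors, a difference of 1.49 (SE 1.03). The kinase MYLK differed by 0.91 (SE 0.83), TPM2 by 0.60 (SE 0.59), ACTG2 by −0.65 (SE 0.48) and desmin (DES) by −0.29 (SE 0.29), and SYNM was at the floor throughout.

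Targets of p53 and genes of growth arrest had a median of −0.02 over 17 genes, 8 of them above 0. At an unadjusted p under 0.05, 1 was higher (5.9%, against 1.71% of all genes) and 0 lower. SESN1, a sestrin induced by stress, was 7.73 to 10.51 (median 9.17) in grade III and 7.91 to 8.52 (median 8.21) in grade II. The grade II values were close together, and 5 grade III tumors exceeded them at their highest. The difference was 0.99 (SE 0.40). FDXR, XPC, TP53INP1 and RRM2B differed by −0.28, −0.29, −0.29 and −0.31, and CDKN1B, a cell cycle inhibitor, was at the floor.

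Markers of other cell types in the sections were counted next. The mean level of each of these lists overlapped between the grades, as it did for all 32 lists examined. T and NK cell genes had 21 of 25 above 0 (84%, against 58.9% of all genes), a median of 0.39 and 0 at an unadjusted p under 0.05, with means of 3.64 to 6.86 in grade III and 3.42 to 5.93 in grade II. Grade III tumor 3 stood apart at 6.86, with the next grade III value at 5.02, and without it the median was 0.084, while without grade II tumor 6 it was 0.62. Macrophage genes had 17 of 22 above 0 (77.3%, against 58.9% of all genes), a median of 0.31 and means of 8.46 to 10.25 against 8.13 to 9.35. At an unadjusted p under 0.05, 1 was higher (4.5%, against 1.71% of all genes) and 0 lower. The macrophage median was 0.11 without grade III tumor 3 and 0.12 without grade III tumor 4. The gene that was higher was CD86, a costimulatory molecule of antigen-presenting cells, at 9.87 to 11.34 (median 10.68) in grade III and 9.29 to 10.73 (median 9.89) in grade II, a difference of 0.70 (SE 0.30). VSIG4 and TREM2, both of macrophages, differed by 0.67 (SE 0.36) and −0.73 (SE 0.54). Their part in the other differences was not tested.

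Fibroblast and matrix genes had a median of −0.06 over 25 genes, with 12 above 0. At an unadjusted p under 0.05, 0 were higher and 1 lower (4%, against 1.98% of all genes). LOXL2, which cross-links collagen, was 9.98 to 12.67 (median 11.39) in grade III and 11.12 to 14.57 (median 12.63) in grade II, a difference of −1.38 (SE 0.60). The collagen COL6A3 differed by −1.07 (SE 0.95) and fibronectin (FN1) by 0.92 (SE 0.53). Adipocyte genes had a median of −0.30 with 4 of 15 above 0, endothelial genes 0.10 with 10 of 18, B and plasma cell genes 0.04 with 9 of 13, neutrophil genes 0.02 with 7 of 10, striated muscle genes 0.01 with 10 of 15 and erythroid genes 0.01 with 3 of 4. Leaving out 1 tumor turned the adipocyte median to 0.24 (grade II tumor 3, whose adipocyte mean was 8.07) and the endothelial one to −0.22 at its lowest (grade II tumor 4) and moved the fibroblast one between −0.50 (grade II tumor 6) and 0.32 (grade II tumor 1). The adipocyte median was −0.12 without grade III tumor 5. In the 6 lists from adipocytes to erythroid cells 0 genes had an unadjusted p under 0.05.

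Some cartilage and keratinocyte genes were high in a few tumors and at the floor in the rest. HAPLN1, a link protein of cartilage matrix, was 8.35, 12.65, 10.65 and 8.93 in grade III tumors 1, 2, 5 and 7, between 1.94 and 2.06 in the other 3 grade III tumors, and 1.92 to 2.83 in grade II. The difference was 4.53 (SE 1.81), with a median of 0.68 over 13 cartilage and bone genes, 7 of them above 0. At an unadjusted p under 0.05, 1 was higher and 1 lower (7.7% each, against 1.71% and 1.98% of all genes). The lower one, chondroadherin (CHAD), was at most 3.56 in any tumor (difference −0.45, SE 0.15), and bone sialoprotein (IBSP) differed by 0.68 (SE 0.39). The cartilage median was −0.096 without grade III tumor 7, 0.21 without grade II tumor 2, 0.28 without grade III tumor 2, 0.41 without grade III tumor 6 and 0.42 without grade II tumor 3.

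Of 13 keratinocyte genes 11 were above 0 (84.6%, against 58.9% of all genes), with a median of 0.33. At an unadjusted p under 0.05, 0 were higher and 1 lower (7.7%, against 1.98% of all genes). The median was 0.029 without grade III tumor 4, 0.17 without grade II tumor 2 and 0.19 without grade II tumor 6. SPINK5, a protease inhibitor of skin, was 9.74, 10.41 and 8.73 in grade II tumors 1, 2 and 6 and at the floor in the other 3, and in grade III it was at most 4.58 (difference −3.27, SE 1.46). KRTDAP, of differentiating keratinocytes, was 10.76 and 7.77 in grade III tumors 4 and 6 and at the floor elsewhere (difference 2.03, SE 1.38). The desmosomal cadherin DSC1 was at the floor in all 13 tumors.

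**Figure D4:**
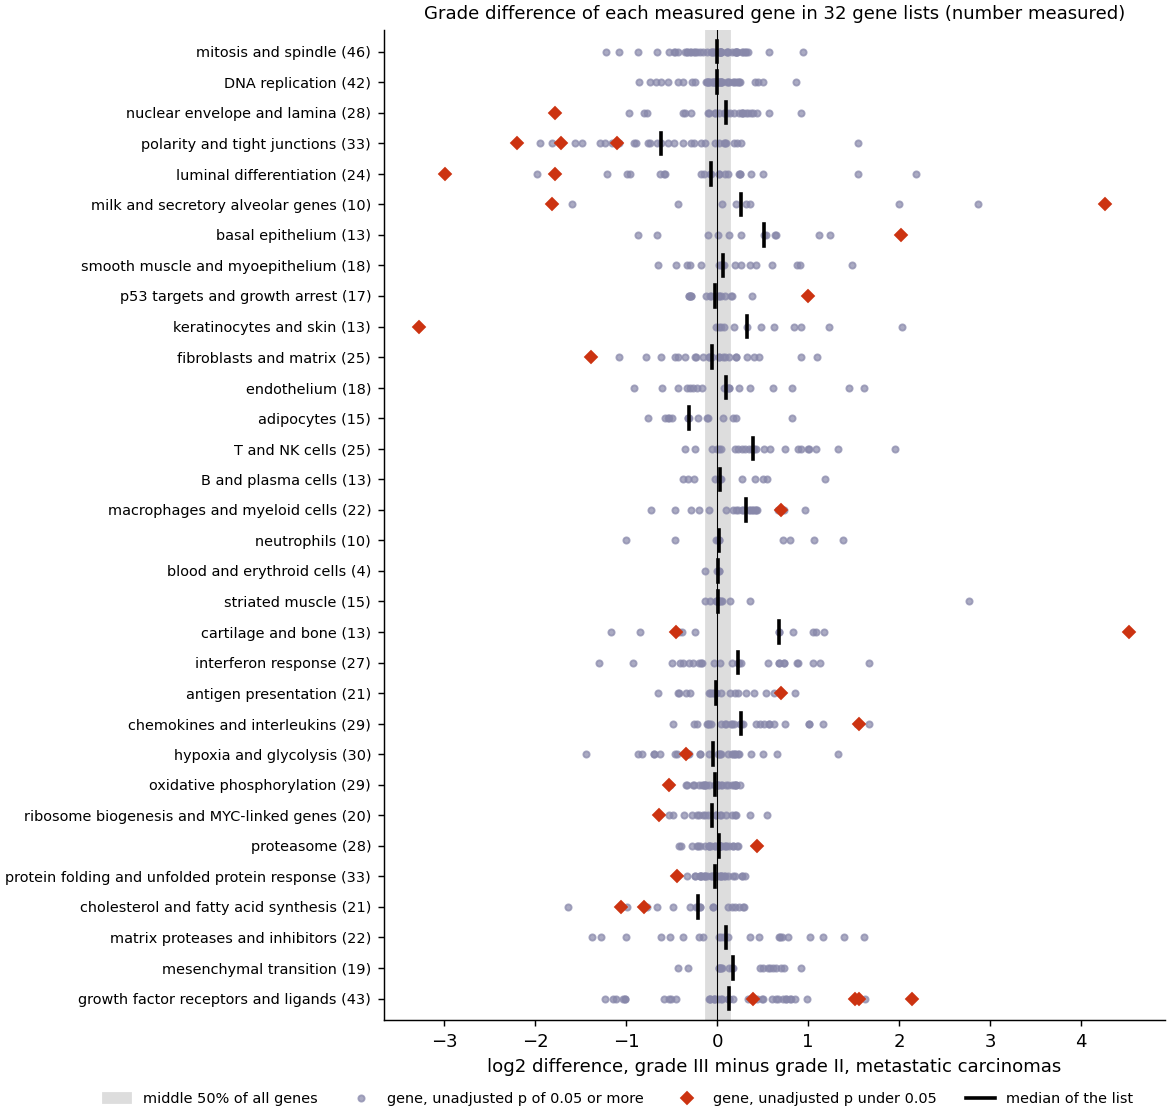
Log2 difference, grade III minus grade II, of every measured gene in 32 gene lists, with the number measured in brackets. Diamonds mark genes at an unadjusted p under 0.05, black bars the list medians and the grey band the middle 50% of all genes. List medians lie between −0.61, polarity and tight junctions, and 0.68, cartilage and bone, and 13 lists hold no diamond.

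Enzymes of fatty acid synthesis were among the genes with the smallest unadjusted p on the lower side. FASN, fatty acid synthase, was 8.54, 8.61, 8.03, 8.39, 8.01, 8.48 and 8.06 in grade III tumors 1 to 7. It was 8.75, 9.68, 9.08, 9.58, 8.77 and 8.78 in grade II tumors 1 to 6. The groups did not overlap, and the difference was −0.80 (SE 0.19). Such a full separation below grade II was found for 3 of 15115 genes (0.0198%), fewer than arbitrary splits of the tumors would give. Of the 1716 splits into 7 and 6 tumors, 1 separates a gene fully in that direction, a share of 0.000583. The 3 other probe sets of FASN gave −1.27 (SE 0.37), −1.55 (SE 0.68) and −0.39 (SE 0.30).

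ACACA, acetyl-CoA carboxylase, which makes the malonyl-CoA that FASN uses, was 6.44 to 7.80 (median 6.90) in grade III and 7.62 to 8.73 (median 7.86) in grade II. Only grade III tumor 1 reached the grade II range, and the difference was −1.05 (SE 0.25). Of its 4 other probe sets 1 gave −1.05 (SE 0.32), and the remaining 3, near the floor, gave differences within 0.02 of 0. The list of cholesterol and fatty acid synthesis had a median of −0.21 over 21 genes, with 6 above 0. At an unadjusted p under 0.05, 0 were higher and 2 lower (9.5%, against 1.98% of all genes), FASN and ACACA. When 1 tumor was left out the median ran from −0.36, without grade III tumor 4, to −0.034, without grade II tumor 2. The sterol desaturase SC5D differed by 0.24 (SE 0.27).

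Metabolic and protein turnover genes had medians near 0. The median differences were −0.02 for oxidative phosphorylation (29 genes), 0.02 for the proteasome (28), −0.02 for protein folding (33), −0.05 for ribosome biogenesis and MYC-linked genes (20) and −0.04 for hypoxia and glycolysis (30). The 95% interval lay wholly between −1 and 1 for 27 of 29 genes of oxidative phosphorylation, 27 of 28 of the proteasome, 25 of 33 of protein folding, 12 of 20 of ribosome biogenesis and 14 of 30 of hypoxia and glycolysis.

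Each of these 5 lists held 1 gene at an unadjusted p under 0.05. This was a share between 3% (protein folding) and 5% (ribosome biogenesis) of the list. Over all genes 1.71% were higher and 1.98% lower at that limit. CAD, which starts pyrimidine synthesis, was 6.67 to 7.64 (median 7.13) in grade III and 6.84 to 8.33 (median 7.94) in grade II, a difference of −0.64 (SE 0.24). The proteasome ATPase PSMC6 differed by 0.44 (SE 0.19), and, outside the naming rule and picked after their values were seen, the cytochrome oxidase subunit COX5B by −0.52 (SE 0.20) and the disulfide isomerase P4HB by −0.44 (SE 0.16). The glycolytic enzyme GPI differed by −0.34 (SE 0.15). The proteasome subunits PSMB1 and PSMC3 differed by −0.40 (SE 0.19) and 0.22 (SE 0.14), and ODC1, of polyamine synthesis, and WDR12, of ribosome assembly, by −0.52 (SE 0.35) and 0.54 (SE 0.26).

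Of 43 growth factor genes 4 were higher (9.3%, against 1.71% of all genes) and 0 lower at an unadjusted p under 0.05, with 27 above 0 and a median of 0.14, which ran from 0.042 to 0.44 when 1 tumor was left out. IGFBP2, which binds insulin-like growth factors, was 8.27 to 11.05 (median 10.39) in grade III and 6.30 to 9.84 (median 7.77) in grade II, a difference of 2.14 (SE 0.63). NTRK2, a neurotrophin receptor, was 8.49 to 10.61 (median 9.25) against 6.85 to 8.87 (median 7.91), a difference of 1.51 (SE 0.48). All 7 grade III tumors exceeded the grade II median for both genes.

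The other 2, chosen after their values were seen, were the ligand PDGFC, at 7.23 to 9.70 (median 9.19) against 5.90 to 9.75 (median 6.87), with 1.56 (SE 0.59), and IGFBP7 with 0.39 (SE 0.17). FGFR3 stood on the other side with −1.14 (SE 0.60). A second probe set of NTRK2 gave 1.48 (SE 0.50), and its 3 others, near the floor, gave at most 0.04.

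Among inflammatory genes, IL18 had the lowest unadjusted p. Of 29 chemokines and interleukins 22 were above 0 (75.9%, against 58.9% of all genes). Their median was 0.26, with 0.17 without grade III tumor 3 and 0.53 without grade II tumor 5 as extremes. At an unadjusted p under 0.05, 1 was higher (3.4%, against 1.71% of all genes) and 0 lower. IL18, a cytokine of the inflammasome, was 8.52, 10.11, 10.27, 10.57, 10.42, 10.58 and 8.96 in grade III tumors 1 to 7. It was 7.56, 9.16, 7.87, 6.97, 8.93 and 9.67 in grade II tumors 1 to 6. Of the 7 grade III tumors 5 exceeded every grade II tumor, and the difference was 1.56 (SE 0.50), with 1.71 (SE 0.62) in a second probe set.

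The related cytokine IL33 differed by 1.16 (SE 0.66), and the lymphocyte receptor CCR7 by −0.11 (SE 0.18). Interferon response genes had a median of 0.23 over 27 genes, 16 above 0, and 0 at an unadjusted p under 0.05, and the median was −0.081 without grade II tumor 5, −0.063 without grade II tumor 3, 0.037 without grade III tumor 2, 0.041 without grade II tumor 1 and 0.45 without grade II tumor 6. Antigen presentation genes had a median of −0.01 with 10 of 21 above 0. CD86 was the 1 gene at an unadjusted p under 0.05 (4.8% higher, against 1.71% of all genes). TAPBP and ERAP1, of peptide loading, differed by −0.65 (SE 0.49) and −0.43 (SE 0.40). Matrix proteases and mesenchymal transition genes had medians of 0.10 and 0.17, and 0 genes at an unadjusted p under 0.05. Of them 14 of 22 (63.6%) and 17 of 19 (89.5%) were above 0, against 58.9% of all genes. These medians were 0.66 and 0.60 without grade II tumor 1, and at their lowest 0.0087 without grade III tumor 4 and 0.050 without grade III tumor 2.

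Outside the lists, KLHL2, an adaptor that brings substrates to cullin 3 ubiquitin ligases, had the smallest unadjusted p of all genes and an adjusted p of 0.950. It was 10.25, 10.42, 10.21, 10.61, 10.37, 10.63 and 10.41 in grade III tumors 1 to 7. It was 9.57, 9.89, 9.65, 9.94, 10.00 and 10.06 in grade II tumors 1 to 6. The groups did not overlap, and the difference was 0.56 (SE 0.10). Its 3 other probe sets gave 0.44 (SE 0.18), 0.12 (SE 0.41) and 0.08 (SE 0.31).

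A full separation above grade II was found for 4 genes (0.0265%), also below the share of 0.000583 that arbitrary splits of the tumors would give. The 4 genes were KLHL2, OGFRL1, AP4S1, a subunit of the AP-4 sorting complex, and MINDY3, a deubiquitinase. OGFRL1 was 9.86 to 11.80 (median 10.14) in grade III and 8.59 to 9.74 (median 9.33) in grade II, a difference of 1.30 (SE 0.33). AP4S1 and MINDY3, which the naming rule does not take, differed by 0.93 (SE 0.23) and 0.66 (SE 0.16).

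The counterparts below grade II were FASN, PGAP2 and GALNT7. PGAP2, which remodels the lipid of GPI anchors, was 5.38 to 6.89 (median 6.37) in grade III and 7.20 to 8.77 (median 7.50) in grade II, a difference of −1.34 (SE 0.31). GALNT7, a transferase of mucin-type O-glycosylation, was 8.13 to 8.94 (median 8.78) against 9.19 to 11.97 (median 9.64), a difference of −1.26 (SE 0.38). Grade II tumor 5 alone lay above 10, and without it the difference was −0.86.

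**Figure D5:**
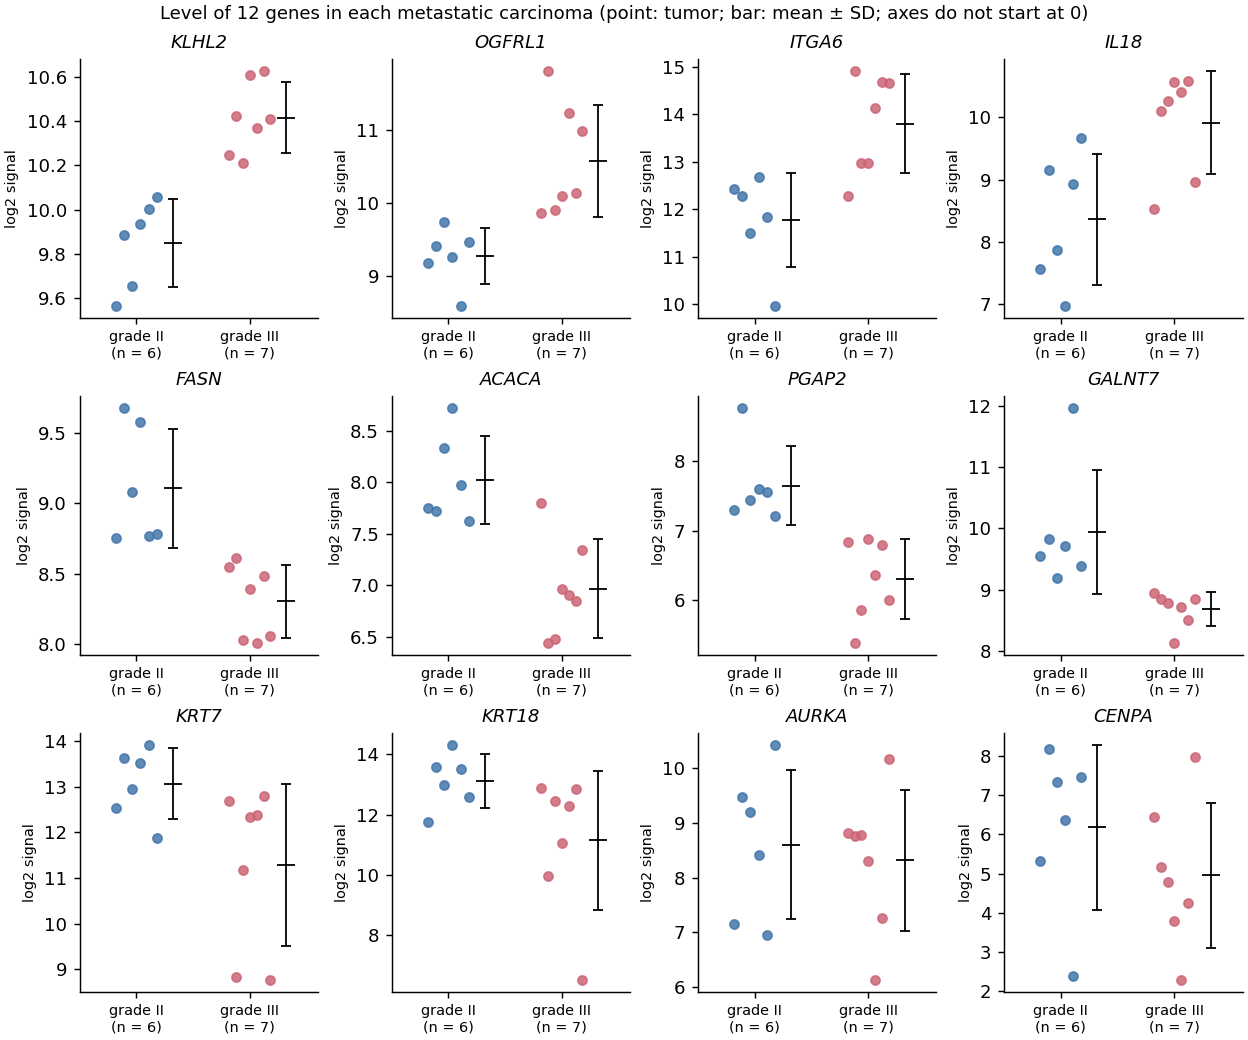
Log2 signal of 12 genes in each metastatic carcinoma by grade, on axes that do not start at 0. Points are tumors and bars give the mean ± SD. The grades separate fully for KLHL2, OGFRL1, FASN, PGAP2 and GALNT7, nearly so for ITGA6 and ACACA, and overlap for IL18, KRT7, KRT18, AURKA and CENPA.

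Among the remaining genes with a difference of at least 1 and the smallest p, those higher in grade III included the histone acetyltransferase KAT2B with 1.56 (SE 0.41), the zinc finger genes ZNF462 and ZNF70 with 1.05 (SE 0.26) and 1.13 (SE 0.32) and the Rac inhibitor ARHGAP24 with 1.39 (SE 0.40). EMR4 and JAML, both known from leukocytes, differed by 2.31 (SE 0.63) and 1.51 (SE 0.43), and KANSL1L by 1.36 (SE 0.40). All 7 grade III tumors exceeded the grade II median for each of these 7 genes, and the groups overlapped. These genes were chosen by their p in this contrast, so the count describes them and is no further support. The share of all genes with such a count is not given here.

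On the lower side ENPEP, a membrane aminopeptidase, was 4.62 to 10.48 (median 7.11) in grade III and 9.27 to 11.47 (median 10.29) in grade II. Grade III tumor 1 alone reached the grade II range, and the difference was −2.90 (SE 0.79), with −2.98 (SE 0.77) in a second probe set. RAMP1, a partner of the CGRP receptor, was 4.66 to 7.32 (median 5.85) against 5.80 to 10.89 (median 8.35), a difference of −2.52 (SE 0.76). CDC42EP5, an effector of the GTPase CDC42, differed by −2.80 (SE 0.82), the mitochondrial carrier SLC25A39 by −1.41 (SE 0.43), TMEM205 by −1.06 (SE 0.32) and C15H1orf210 by −1.40 (SE 0.43).

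Of the receptors and the genes that the study followed by PCR, HEPACAM2 was the 1 gene at an unadjusted p under 0.05. This cell adhesion gene was 2.77 to 7.09 (median 5.67) in grade III and 2.79 to 5.44 (median 2.93) in grade II. Grade III tumors 2, 5, 6 and 7 lay above every grade II tumor, and the difference was 1.63 (SE 0.74). ERBB2, the gene of HER-2, was 4.60 to 6.68 (median 5.86) in grade III and 4.51 to 8.01 (median 6.94) in grade II, a difference of −1.03 (SE 0.58). The 2 tumors labelled HER-2 negative held the lowest ERBB2 values of all 13, 4.51 and 4.60. ESR1, the gene of ERa, was near the floor in all tumors but grade II tumor 5 (3.40) and differed by −0.18 (SE 0.17), and the progesterone receptor PGR differed by 0.25 (SE 1.13). TGFBR3 differed by 0.80 (SE 0.93), BMP6 by −0.45 (SE 0.85), ALOX12 by 0.15 (SE 0.34), ERBB4 by −0.07 (SE 0.21) and IGF2R by −0.03 (SE 0.42).

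The same grade contrast in the 14 carcinomas without lymph node metastases, 9 of grade III and 5 of grade II by their labels, was computed in 1 fit over all 27 tumors. For 1 of the 5 grade II tumors the study's text gives another grade, and the label was kept. The grade II dogs were a Great Dane, Dalmatian, Irish Setter, Pudel and Miniature Pinscher. The grade III dogs were a Labrador, wheaten Terrier, German Short Hair and mixed breeds. All 14 were labelled HER-2 positive, though the study's text gives the Labrador as negative. They were 9 to 15 years old with tumors of 2 to 15 cm. Grade II dogs were here younger on average, whereas metastatic grade II dogs were older, so the 2 contrasts differed in age too. The sample names of all 14 ended in a year, as did those of only 1 metastatic tumor of each grade. What the ending marks is not stated, and its part in comparisons with metastatic tumors was not tested. In the non-metastatic tumors 0 genes passed the adjusted test (smallest adjusted p 0.905). At an unadjusted p under 0.05 353 (2.34%) were higher and 237 (1.57%) lower in grade III. The difference between the 2 grade contrasts, the interaction term of limma, also passed for 0 genes (smallest adjusted p 1.00), with 220 (1.46%) above 0 and 182 (1.2%) below 0 at an unadjusted p under 0.05.

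The mitotic genes had a median grade difference of 0.98 in non-metastatic tumors, with 46 of 46 above 0 and 7 higher at an unadjusted p under 0.05. Of all genes 2.34% were higher in this contrast at that limit, and the share of all genes above 0 was not computed. Mitotic genes vary together between tumors, so 46 of 46 is a description of the list and not a test. The paper reports that some lymph node negative tumors, graded III in its text, clustered with the metastatic tumors. For 1 of these dogs it reports later lung metastases. The list medians of the non-metastatic contrast were not recomputed without these or other single tumors. In metastatic tumors the mitotic median was −0.00, with 23 of 46 above 0 and 0 at an unadjusted p under 0.05. The interaction had an unadjusted p under 0.05 for 0 of the 46 genes, and its median was −1.01. The mean level of the list was 4.63 to 5.81 in non-metastatic grade II, 4.35 to 7.41 in non-metastatic grade III, 6.14 to 8.75 in metastatic grade II and 5.71 to 9.09 in metastatic grade III. All 6 metastatic grade II tumors thus lay above all 5 non-metastatic grade II tumors. This was not particular to mitotic genes. The list means of DNA replication, hypoxia and glycolysis, ribosome biogenesis, the proteasome, protein folding, and cholesterol and fatty acid synthesis separated these groups in the same direction. For replication genes the medians were 0.60 and 0.00, with 6 and 0 genes higher at an unadjusted p under 0.05, and 1 of 42 interaction terms had an unadjusted p under 0.05.

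Polarity and tight junction genes leaned the same way on both sides, with medians of −0.61 and −0.48, while luminal differentiation genes had −0.07 in metastatic and −0.92 in non-metastatic tumors and 1 of 24 interaction terms at an unadjusted p under 0.05. Interferon response genes had 0.23 and −0.83, with 2 of 27 interaction terms at an unadjusted p under 0.05. Over all genes 1.46% of interaction terms lay above 0 and 1.2% below 0 at that limit. HEPACAM2 differed by 1.63 in metastatic and by −2.37 (SE 1.18) in non-metastatic tumors, where it was 2.92 to 10.78 in grade III and 7.08 to 11.36 in grade II (interaction 4.00, SE 1.66). GATA3 differed by 2.19 and −1.98 (interaction 4.17, SE 1.54).

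The 5 smallest interaction p values above 0 belonged to RIN2, KLHL2, PPP4R3B, CLPX and EPYC, and below 0 to MARK1, GPI, NNT, THEM4 and LOXL2. RIN2, an exchange factor for RAB5, differed by 0.78 (SE 0.21) in metastatic and −0.68 (SE 0.25) in non-metastatic tumors (interaction 1.46, SE 0.35). KLHL2 differed by 0.56 and −0.15 (interaction 0.71, SE 0.21), the mitochondrial protease subunit CLPX by 0.46 and −0.54 (interaction 1.00, SE 0.30) and the phosphatase subunit PPP4R3B by 0.25 and −0.38 (interaction 0.63, SE 0.19). EPYC, a proteoglycan of cartilage, differed by 0.27 and −1.57 (interaction 1.84, SE 0.56).

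LOXL2 differed by −1.38 and 1.10 (SE 0.51), with an interaction of −2.49 (SE 0.72). NNT, the proton-pumping transhydrogenase of mitochondria, differed by −0.62 and 1.03 (interaction −1.65, SE 0.49), the kinase MARK1 by −0.21 and 0.91 (interaction −1.13, SE 0.32), GPI by −0.34 and 0.40 (interaction −0.74, SE 0.21) and the thioesterase THEM4 by −0.94 and 0.44 (interaction −1.38, SE 0.41). FASN, ACACA, ITGA6, PGAP2 and GALNT7, which stood out among metastatic tumors, differed by −0.53, −0.20, 0.35, −0.86 and −1.34 in non-metastatic tumors. Their interactions were −0.27 (SE 0.58), −0.86 (SE 0.49), 1.67 (SE 0.76), −0.48 (SE 0.73) and 0.08 (SE 0.79), of which that of ITGA6 alone had an unadjusted p under 0.05.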

How the data were processed

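RNA from 27 tumors was measured on Affymetrix Canine Genome 2.0 arrays. Per the labels and methods, the authors ran the gcRMA workflow of Partek, in which background correction is followed by quantile normalization and median polish. The deposited table holds log2 signals, used here without further scaling. Quantile normalization removes differences in total signal between tumors, and dim probe sets are compressed toward a floor. The table has 43035 probe sets, of which 175 are controls and were excluded. Among the remaining 42860, a single gene symbol was given for 29254, several for 439 and none for 13167. For each of 15115 genes the probe set with the highest mean across the 27 tumors was taken, and 8254 genes had more than 1. Groups follow the labels of lymph node and grade. Grades were tested by limma (version 3.58.1, R version 4.3.3; lmFit, eBayes, Benjamini-Hochberg, threshold 0.05) in the 13 metastatic tumors, in place of the analysis of variance of the methods, and the contrast with non-metastatic tumors was tested as an interaction over all 27. Age, size, survival and array measures were compared by two-sided exact permutation over 1716 splits (462 for survival).

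The 32 gene lists (819 genes, 714 measured) and the tumors compared were chosen with earlier results of these data known, and lists were described by counts and medians only. Named genes were, per direction, the 10 of largest difference past the adjusted threshold, filled up by smallest unadjusted p among differences of at least 1. They were joined by up to 4 and 2 genes of smallest p (main and other direction) per list tied to grade, by up to 2 and 1 per other list whose share at an unadjusted p under 0.05 was at least 2 times that of all genes, by receptors and genes the study measured by PCR, and by the 5 smallest interaction p values per direction. Alternative settings changed the samples fitted, the variance model, array weighting, scaling, the treatment of dim or multiple probe sets and the covariates, or omitted tumors. Scripts were tested on simulated data. PCR, immunohistochemistry and probe sequences were not analysed here. Figures used matplotlib 3.10.9 (Python 3.11.15).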

Additional observations from a re-analysis of the deposited data

Results flagged for a closer look

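Named genes, list means and measures of dogs and arrays were examined within each grade, 308 times in all on the same tumors. In 27 a tumor lay far from the others of its grade (a gap to the nearest tumor above the 95% critical value of Dixon's test). For normally distributed values chance gives about 1 in 20. Some of these values lie at the floor and many genes were chosen by their values, so that rate does not strictly apply. Grade II tumor 2 was alone in PGAP2 at 8.77, TMEM205 at 10.73 and HAPLN1 at 2.83. Grade II tumor 5 was alone in GALNT7 at 11.97, TP53INP1 at 4.82 and ESR1 at 3.40. Grade II tumor 6, the one with an axillary node, was alone in LALBA at 6.94 and CCR7 at 3.47 on the high side, and in TPM2 at 8.33 and the mean of basal genes at 5.57 on the low side. PIGR was low in grade II tumor 1 at 5.31, and the mean of adipocyte genes was high in grade II tumor 3 at 8.07. Grade II tumor 4 had the longest survival at 9 months.

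In grade III, tumor 4 was alone in SPINK5 at 4.58, in the mean of keratinocyte genes at 5.92 and in that of adipocyte genes at 6.72. Tumor 5 was alone in EPYC at 4.28, MARK1 at 7.77, CHAD at 2.76 and, on the low side, the mean of nuclear envelope genes at 7.87. Tumor 6 was alone in TP63 at 5.51, tumor 7 in STAT5A at 10.57 and CEL at 2.51, and tumor 1 in FGFR3 at 4.35 and DSC1 at 2.47. Tumor 3 was alone in the mean of T and NK cell genes at 6.86 and, on the low side, in SYNM at 2.43. The values of CEL, DSC1, SYNM and CHAD were all below 3, at the floor of the array.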

How the results depend on the processing

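The count of 0 genes at an adjusted p under 0.05 held under every alternative run, with smallest adjusted p values between 0.0835 (without both HER-2 negative tumors, chosen after seeing the data) and 1.00. The 557 genes at an unadjusted p under 0.05 became 836 in the fit over 27 tumors, 836 with the upper quartile as covariate, 1026 with array weights, 383 with age as covariate and 483 without moderation. Leaving out 1 tumor gave 363 to 938, with 363 without grade II tumor 2, 366 without grade II tumor 4 and 938 without grade II tumor 5. The fit with survival as covariate also lacks grade III tumors 4 and 6, which have no survival value, and gave 1515, against 527 for the same 11 dogs without the covariate (added after seeing the data). Over these 11 dogs the list medians with and without survival as covariate were −1.32 and −0.83 (polarity and tight junctions), −0.99 and −0.022 (basal epithelium), −0.12 and 0.50 (cartilage and bone), and −0.53 and −0.088 (hypoxia and glycolysis). With brighter probe sets they moved to −1.32 for keratinocytes (2 genes left), 0.77 for neutrophils (4) and 2.77 for striated muscle (1). The cartilage median ran from −0.10, without grade III tumor 7, to 0.74 when 1 tumor was left out.

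Of 118 named genes 20 changed sign under some alternative, and none passed the adjusted threshold. With age as covariate the values were RRM1 −0.078, PARD3 −0.19, STAT5A −0.17, SFN 0.61, RRM2B 0.058, CDKN1B −0.018, DSC1 −0.0028, PGR −0.19, ALOX12 −0.28, BMP6 0.91 and IGF2R 0.014. With survival, over the 11 dogs, they were CDH3 −0.77, TPM2 −0.21, XPC 0.0017, TP53INP1 0.026, CCR7 0.029, ESR1 0.019, PGR −0.098, AURKA 0.20 and ERBB4 0.19. For the 11 dogs without the covariate PGR was −0.25, ERBB4 0.037 and IGF2R 0.096, and CDH3, TPM2, XPC, TP53INP1, CCR7, ESR1 and AURKA kept their sign. NUSAP1 was −0.011 with array weights, AURKA 0.24 with the probe set of largest variance, ERBB4 0.010 and IGF2R 0.015 with the upper quartile, and SFN 0.39, ERBB4 0.067 and IGF2R 0.28 without both HER-2 negative tumors. Leaving out 1 tumor at a time, NUSAP1 ran from −0.025 to 0.47, SFN from −1.46 to 0.031, TP53INP1 from −0.39 to 0.16, CCR7 from −0.17 to 0.082, ESR1 from −0.23 to 0.017, PGR from −0.11 to 0.92, AURKA from −0.62 to 0.075, ALOX12 from −0.065 to 0.38, ERBB4 from −0.18 to 0.044 and IGF2R from −0.28 to 0.20. The cause was not tested. No paired analysis was possible because replicate numbers only count the dogs of each grade and every tumor came from another dog. No scaling moved the median of all genes by more than 0.1.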
